A study of Rattus norvegicus with 16 samples.

Results

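The genes described here build the machinery by which islet cells release hormone from secretory granules. They were taken from a list of 38 symbols covering SNARE proteins, synaptotagmins, Rab3 and Rab27 GTPases with their effectors, priming factors and granule membrane proteins. Of these, 37 had a probe set among the 14217 genes measured, and Slc30a8 was not analysed here. For every gene the probe set with the highest mean log2 intensity over the 16 arrays was used, a choice blind to the treatment groups.

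Insulin, glucagon and somatostatin are stored in dense-core granules. A Rab GTPase and its effectors bring a granule to the plasma membrane, priming factors make it ready, and a SNARE on the granule pairs with syntaxin and SNAP proteins on the target membrane. Calcium entry acts on synaptotagmins to trigger fusion, after which NSF and its adaptor α-SNAP take the spent SNARE complex apart.

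RNA came from primary pancreatic islets of male Wistar rats aged 8 weeks, cultured in medium with 8 mM glucose and 10% serum. Untreated islets (n = 5 arrays) received no virus, islets labelled βgal (n = 6) received an adenovirus carrying β-galactosidase (Adβgal, the control virus), and islets labelled Nkx6.1 (n = 5) received an adenovirus carrying the beta cell transcription factor Nkx6.1 (AdNkx6.1). Virus was present for 18 h and all islets were collected at 48 h. A virus can enter any cell type of the islet, the labels do not give the share of cells infected, and nothing in them says how many animals stand behind an array, so p-values measure the spread between these arrays. Values are log2 intensities of 1-colour Affymetrix arrays. A log2 change of A against B means A minus B, with its standard error (SE) from a limma fit over all 16 arrays, and a gene was called where the p-value, adjusted by the Benjamini-Hochberg method over all 14217 genes, lay under 0.05.

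Islet hormones were present on every array, with Ins1 between 14.43 and 14.89 and Gcg between 14.43 and 14.82 on all 16 arrays. Of 20 listed acinar markers 17 were measured, and their summed linear intensity ran from 26829 to 42614 untreated, from 21206 to 103202 with Adβgal and from 22708 to 55883 with AdNkx6.1. Adβgal replicates 4, 5 and 6 held the 3 highest acinar sums of all arrays, at 103202, 68565 and 75983. Adβgal replicate 5 also stood apart in RNA quality. Its beta-actin probe sets at the 3′ and 5′ ends of the transcript differed by 5.35 log2 units, against 2.48 to 3.96 on the other 15 arrays. In bulk RNA, fewer cells of a type cannot be told from less RNA per cell. The Nkx6-1 probe set was lower with AdNkx6.1 than with Adβgal (11.43 against 11.9, log2 change -0.46 ± 0.1, limma adjusted p = 0.0023), and whether it lies within the delivered sequence is not given in the sources used here.

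The comparison of AdNkx6.1 with Adβgal sets the delivered factor against a control virus; their doses were not compared. Among the SNAREs of the target membrane, the synaptotagmins and the Rab GTPases, some genes rose and others fell. Syt3 and Stx1a had the largest rises of the 37, by log2 1.09 and 0.99, and Vamp3, Vamp8, Snap23, Rab3d, Napa and Nsf rose by 0.26 to 0.38. Rab3c, Rab27b, Stx3, Cadps, Syt1, Syt4 and Snap25 fell by log2 changes of -0.59 to -0.22. In all, 15 of 37 members were called (40.5%), where the background over all genes was 25.0%. Of these 8 were higher (background 16.6%) and 7 lower (background 8.48%). The groups did not overlap for 11 members, 7 higher and 4 lower, where 14.2% of all genes did not overlap, 10.4% higher and 3.78% lower. With each array centred on its own median the members called were 5 higher and 8 lower, and over all genes 1884 were then higher and 1868 lower, against 2354 and 1206. The median change of the members was 0.08, and that of all genes 0.02.

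**Figure D1:**
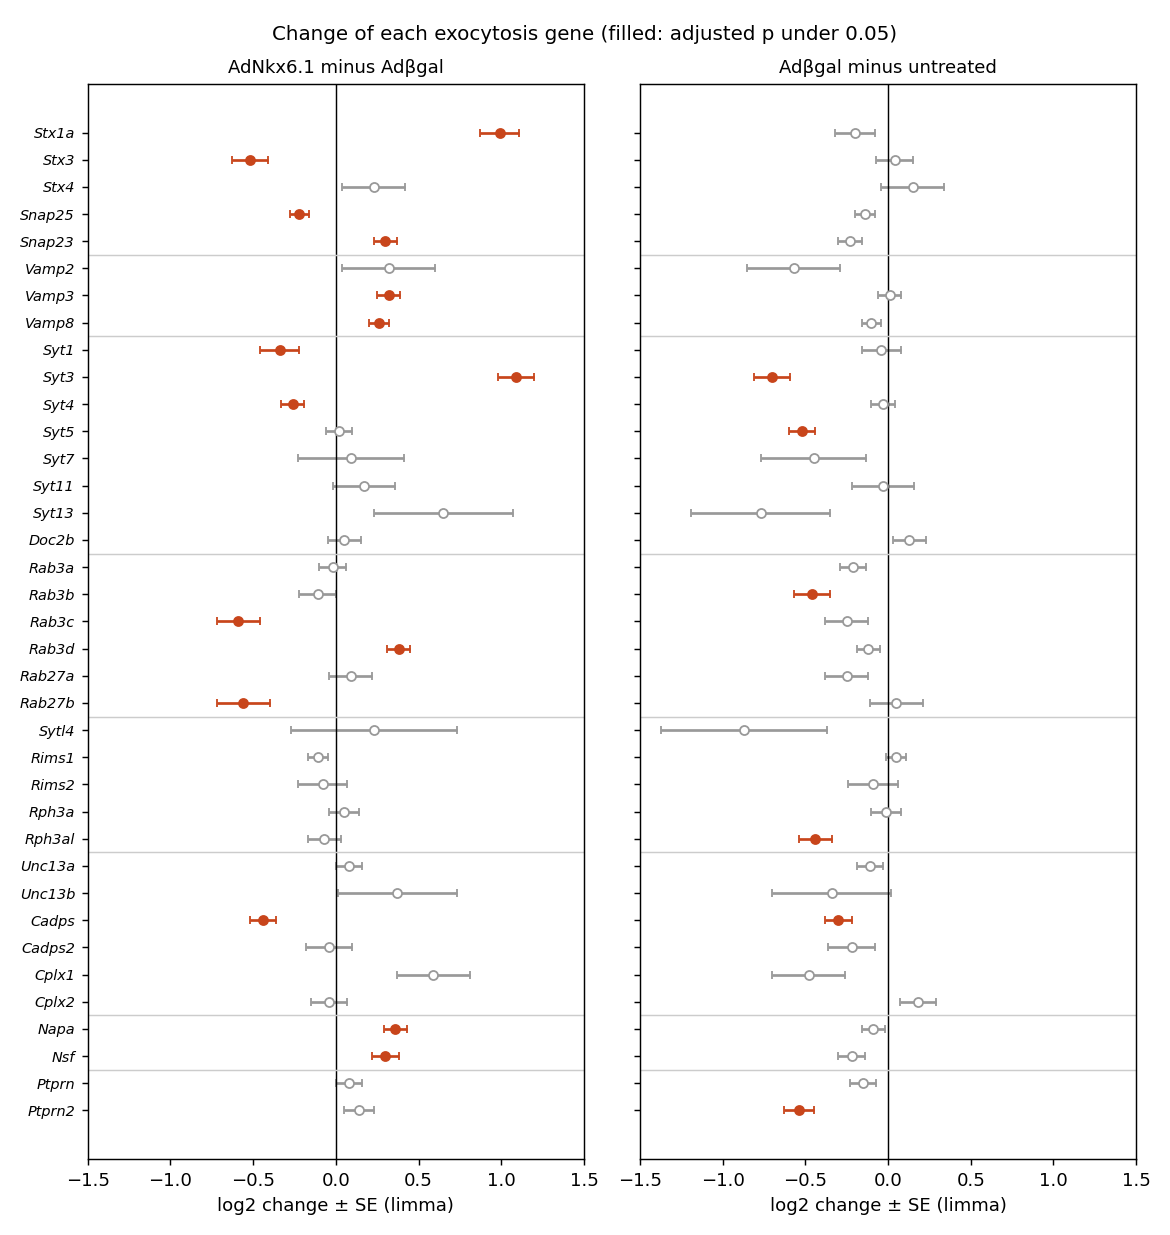
Log2 change with its SE for each of the 37 genes, grouped by role, for AdNkx6.1 minus Adβgal (left) and Adβgal minus untreated (right). Filled red points passed an adjusted p of 0.05; on the left 8 lie above 0 and 7 below, on the right 6 lie below and 0 above.

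Among the SNAREs of the target membrane, Stx1a encodes syntaxin 1A, the syntaxin that pairs with SNAP25 in regulated secretion. Its log2 intensity was 8.77, 8.55, 8.7, 8.55 and 8.59 on the untreated arrays, 8.02 to 8.75 with Adβgal (median 8.4), and 9.64, 9.32, 9.29, 9.4 and 9.47 with AdNkx6.1. Every AdNkx6.1 array thus lay above every other array. Stx1a was 1.98-fold higher with AdNkx6.1 than with Adβgal (log2 change 0.99 ± 0.12, limma adjusted p = 1.3e-05) and 1.73-fold higher than untreated (0.79 ± 0.12, adjusted p = 0.00013). Its dimmer probe set was also higher, by 0.67 ± 0.18. Because Stx1a and the synaptotagmin gene Syt3 rose furthest, their promoters are shown here from RefSeq, build GRCr8, each as 250 bases before to 50 after the start of the gene, read 5′ to 3′ on the strand of the gene (Stx1a at chr12:27306422-27306721, minus strand; Syt3 at chr1:104017874-104018173, plus strand). No base is in capitals in either, because none of the 3 motifs searched (given with the promoter of Napa) occurred in them.
Stx1a: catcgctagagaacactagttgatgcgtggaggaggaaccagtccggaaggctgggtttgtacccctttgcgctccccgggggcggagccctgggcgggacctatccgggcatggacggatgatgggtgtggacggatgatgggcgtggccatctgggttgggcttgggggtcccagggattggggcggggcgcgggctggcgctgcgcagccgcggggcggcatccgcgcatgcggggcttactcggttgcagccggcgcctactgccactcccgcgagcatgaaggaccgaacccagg
Syt3: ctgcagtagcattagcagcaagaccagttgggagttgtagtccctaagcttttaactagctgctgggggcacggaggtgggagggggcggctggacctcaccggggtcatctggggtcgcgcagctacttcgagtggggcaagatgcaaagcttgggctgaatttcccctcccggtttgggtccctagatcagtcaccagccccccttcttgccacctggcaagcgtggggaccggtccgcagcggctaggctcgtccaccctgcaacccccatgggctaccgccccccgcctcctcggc

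Stx3, a syntaxin of apical membranes and of granule-to-granule fusion, moved the other way. It read 10.12, 10.24, 10.38, 10.17 and 10.2 untreated, 9.96 to 10.49 with Adβgal (median 10.29) and 9.84, 9.91, 9.38, 9.75 and 9.81 with AdNkx6.1. All AdNkx6.1 arrays lay below all others, a 1.43-fold fall against Adβgal (-0.52 ± 0.11, adjusted p = 0.0022). The dimmer probe set of Stx3 did not show this fall (0.22 ± 0.13, adjusted p = 0.24 over all probe sets), and the mean of the probe sets gave a log2 change of -0.15 (adjusted p = 0.22). Stx4, a plasma membrane syntaxin used by many tissues, was not called (0.23 ± 0.19, adjusted p = 0.4). Its value of 11.96 on Adβgal replicate 5 stood far above the other 5 Adβgal arrays, which lay at 11.07 or lower. Without that array Stx4 was called higher, at 0.42 ± 0.09 (adjusted p = 0.0033).

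Snap25, the SNAP of neurons and endocrine cells, and Snap23, its relative in most tissues, also moved apart between the viruses. Here Snap25 fell and Snap23 rose. Snap25 read 13.34, 13.47, 13.45, 13.43 and 13.44 untreated, 13.23 to 13.34 with Adβgal (median 13.29) and 13.06, 13.14, 13.12, 12.89 and 13.09 with AdNkx6.1. The AdNkx6.1 arrays were the lowest of all, and Snap25 was 1.17-fold lower than with Adβgal (-0.22 ± 0.06, adjusted p = 0.0092) and 1.29-fold lower than untreated (-0.37 ± 0.06, adjusted p = 0.00024). Snap23 read 11.07, 11.1, 11.11, 11.16 and 11.21 untreated, 10.76 to 11.07 with Adβgal (median 10.86) and 10.98, 11.11, 11.31, 11.29 and 11.29 with AdNkx6.1. These groups overlapped. Snap23 was 1.23-fold higher with AdNkx6.1 than with Adβgal (0.3 ± 0.07, adjusted p = 0.0068) but was not called against untreated islets (0.07 ± 0.08, adjusted p = 0.55). Its call against Adβgal was lost with centred array medians (0.24, adjusted p = 0.079) and without Adβgal replicates 4, 5 and 6 (0.23, adjusted p = 0.056). The dimmer probe set of Snap23 was not called (0.2 ± 0.07, limma adjusted p = 0.059 over all probe sets).

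Of the vesicle SNAREs, Vamp2 is the classical partner of syntaxin 1A and SNAP25 in insulin granule fusion, and Vamp3 and Vamp8 are its relatives of recycling and endosomal membranes. Vamp3 read 12.84, 12.81, 12.85, 12.77 and 12.84 untreated, 12.52 to 12.94 with Adβgal (median 12.88) and 13.15, 13.14, 13.24, 13.05 and 13.18 with AdNkx6.1. Vamp8 read 12.59, 12.56, 12.56, 12.56 and 12.55 untreated, 12.3 to 12.61 with Adβgal (median 12.46) and 12.66, 12.64, 12.77, 12.74 and 12.77 with AdNkx6.1. For Vamp3 and Vamp8 alike, all AdNkx6.1 arrays lay above all others. Against Adβgal, Vamp3 was 1.25-fold higher (0.32 ± 0.07, adjusted p = 0.0035) and Vamp8 1.19-fold higher (0.26 ± 0.06, adjusted p = 0.0062). With centred array medians these calls were lost, narrowly for Vamp3 (0.26, adjusted p = 0.051) and for Vamp8 at an adjusted p = 0.085. Vamp2 was not called in any of the 3 comparisons, and its values are given with the genes of highest SD among Adβgal arrays.

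Among the calcium sensors, Syt3 encodes a synaptotagmin with high calcium affinity. It read 8.85, 9.1, 8.92, 9.12 and 9.1 untreated, 7.94 to 8.65 with Adβgal (median 8.33) and 9.6, 9.3, 9.29, 9.36 and 9.48 with AdNkx6.1. None of the 3 groups overlapped: the control virus arrays were lowest, untreated arrays lay between and AdNkx6.1 arrays were highest. Syt3 was 2.13-fold higher with AdNkx6.1 than with Adβgal (1.09 ± 0.11, adjusted p = 4.1e-06) and 1.63-fold lower with Adβgal than untreated (-0.7 ± 0.11, adjusted p = 0.0026). Its other probe set gave 0.97 ± 0.16 and -0.61 ± 0.16 for the same comparisons, both called over all probe sets. Against untreated islets the rise with AdNkx6.1 was 1.31-fold (0.39 ± 0.12, adjusted p = 0.022), and this call was lost (adjusted p between 0.052 and 0.059) when either replicate 1 or 3 of the untreated group, or either replicate 1 or 5 of the AdNkx6.1 group, was left out. It was also lost with a further quantile normalization (0.27, adjusted p = 0.13), with centred array medians (0.3, adjusted p = 0.064) and with the replicate number as a block (0.39, adjusted p = 0.054). The other probe set was not called against untreated islets (0.36 ± 0.16, adjusted p = 0.14 over all probe sets).

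Syt4, a synaptotagmin that lowers the calcium sensitivity of release, read 13.23, 13.5, 13.4, 13.44 and 13.44 untreated, 13.27 to 13.56 with Adβgal (median 13.36) and 13.12, 13.17, 13.2, 12.94 and 13.11 with AdNkx6.1. All AdNkx6.1 arrays lay below all others, with a 1.2-fold fall against Adβgal (-0.26 ± 0.07, adjusted p = 0.012). The other probe set of Syt4 gave -0.23 ± 0.39, and the mean of the probe sets -0.25 (adjusted p = 0.34). Syt1, the fast sensor of synaptic vesicles, lay near the bottom of the intensity scale (3.67 to 4.59 over all arrays) and was 1.27-fold lower with AdNkx6.1 than with Adβgal at an adjusted p = 0.039. That call was lost when any 1 of AdNkx6.1 replicates 2, 3, 4 and 5, Adβgal replicates 1, 2 and 3 or untreated replicates 2 and 5 was left out, at adjusted p-values of 0.051 to 0.093. Syt5, a synaptotagmin of dense-core granules, differed little between the viruses (0.02 ± 0.08, adjusted p = 0.87), although both lay well below untreated. Syt11 (0.17 ± 0.19) and Doc2b, a calcium sensor that binds syntaxin (0.05 ± 0.1), were not called in any comparison.

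**Figure D2:**
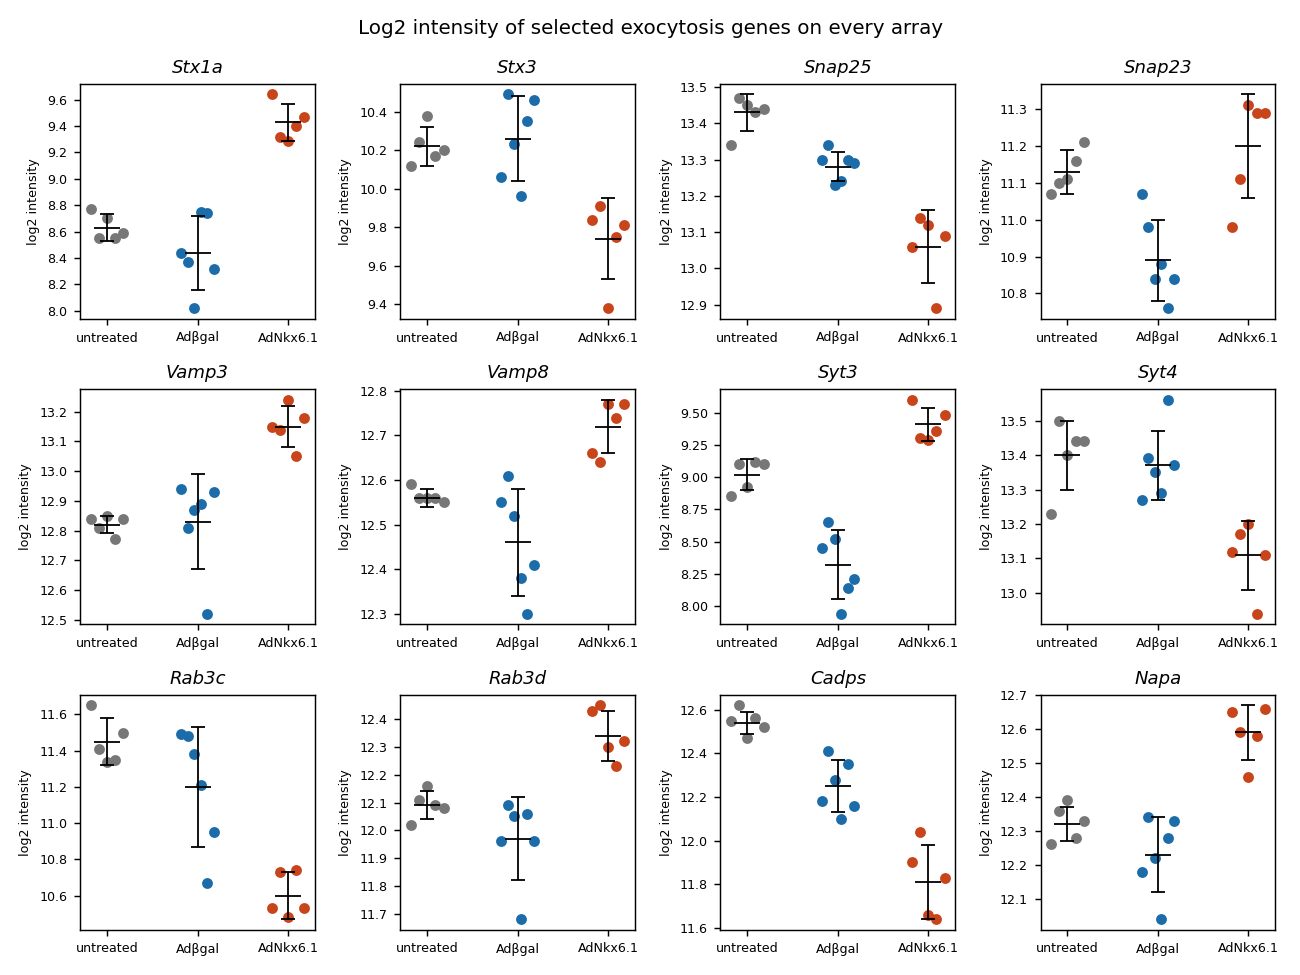
Log2 intensity of 12 exocytosis genes on every array, in untreated (grey, n = 5), Adβgal (blue, n = 6) and AdNkx6.1 (red, n = 5) islets, with mean and SD in black; each panel has its own axis, which does not start at 0. For Stx1a the 5 AdNkx6.1 arrays lie between 9.29 and 9.64, above all others, and for Syt3 the 3 groups do not overlap.

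The Rab GTPases direct granules to the membrane, and Rab3a, Rab3b, Rab3c and Rab3d are close relatives. Rab3c read 11.65, 11.41, 11.34, 11.35 and 11.5 untreated, 10.67 to 11.49 with Adβgal (median 11.3) and 10.53, 10.73, 10.48, 10.74 and 10.53 with AdNkx6.1. It fell 1.51-fold against Adβgal (-0.59 ± 0.13, adjusted p = 0.0032) and 1.8-fold against untreated (-0.85 ± 0.14, adjusted p = 0.00022). Adβgal replicate 5, at 10.67, was the one control virus array within the AdNkx6.1 range, and without Adβgal replicates 4, 5 and 6 the difference between the viruses was -0.85. Rab3d, the isoform best known from exocrine granules, read 12.02, 12.11, 12.16, 12.09 and 12.08 untreated, 11.68 to 12.09 with Adβgal (median 12.01) and 12.43, 12.45, 12.3, 12.23 and 12.32 with AdNkx6.1. All AdNkx6.1 arrays lay above all others, 1.3-fold above Adβgal (0.38 ± 0.07, adjusted p = 0.0014). Against untreated islets Rab3d was 1.19-fold higher (0.25 ± 0.08, adjusted p = 0.022), a call lost without untreated replicate 1 (adjusted p = 0.051), AdNkx6.1 replicate 1 (0.052) or 2 (0.055), and with centred medians (0.17, adjusted p = 0.066). Acinar cells also express Rab3d. The acinar sums with AdNkx6.1 overlapped those of untreated islets (22708 to 55883 against 26829 to 42614), and on the Adβgal array with the highest acinar sum, replicate 4, Rab3d was lowest of all arrays, at 11.68. The part of acinar RNA in the Rab3d values was not tested.

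Rab3b was not called between the viruses (-0.11 ± 0.11, adjusted p = 0.48). Without Adβgal replicates 4, 5 and 6 it was called lower with AdNkx6.1 (-0.32, adjusted p = 0.0051). Rab3a, the main Rab3 of neurons, differed by -0.02 ± 0.08. Rab27a, the chief Rab of insulin granules, differed by 0.09 ± 0.13, and its relative Rab27b fell 1.48-fold (-0.56 ± 0.16, adjusted p = 0.019). Rab27b read 7.31, 7.1, 7.92, 7.19 and 7.55 with AdNkx6.1 and 7.69 to 8.35 with Adβgal, so the groups overlapped, and leaving out replicate 2 (adjusted p = 0.054) or 4 (0.056) of the AdNkx6.1 group ended the call. The dimmer probe set of Rab27b, with a mean of 5.7, was not called (-0.26 ± 0.16, adjusted p = 0.29 over all probe sets).

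The Rab effectors link a Rab on the granule to the membrane or the release site. Sytl4 (granuphilin), Rims1 and Rims2 (scaffolds of the release site), Rph3a (rabphilin) and Rph3al (Noc2) were not called between the viruses in limma, at adjusted p-values of 0.19 to 0.78. At an unadjusted p under 0.05 the count was 0 of 5 as well. With centred array medians Rims1 was called lower (-0.18, adjusted p = 0.041), at intensities near the bottom of the scale (3.49 to 3.84).

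Of the factors that prime granules or hold the SNARE complex before fusion, Cadps (CAPS1, which primes dense-core granules) fell in steps. It read 12.55, 12.62, 12.47, 12.56 and 12.52 untreated, 12.1 to 12.41 with Adβgal (median 12.23) and 11.9, 12.04, 11.66, 11.64 and 11.83 with AdNkx6.1. The 3 groups did not overlap. Cadps was 1.35-fold lower with AdNkx6.1 than with Adβgal (-0.44 ± 0.08, adjusted p = 0.0008) and 1.66-fold lower than untreated (-0.73 ± 0.08, adjusted p = 8.2e-06). A much dimmer probe set of Cadps, with a mean of 5.81 against 12.2, also fell between the viruses (-1.68 ± 0.37) but was higher with Adβgal than untreated (1.37 ± 0.37). Cadps2, its relative, differed by -0.04 ± 0.14 between the viruses. The Munc13 priming genes Unc13a (0.08 ± 0.08) and Unc13b (0.37 ± 0.36) and the complexin gene Cplx2 (-0.04 ± 0.11) were not called either.

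Cplx1, whose product clamps and then aids fusion, read 6.86, 6.52, 6.62, 6.84 and 6.62 with AdNkx6.1 and 4.97 to 6.5 with Adβgal. The groups did not overlap, yet the gene was not called (0.59 ± 0.22, adjusted p = 0.056). It was called without Adβgal replicate 2 (0.67, adjusted p = 0.038), 4 (0.36, 0.026) or 5 (0.65, 0.042), and the value of 4.97 was that of replicate 4. The dimmer probe set of Cplx1 differed by -0.11 ± 0.08.

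Both genes of SNARE disassembly rose. Napa, which encodes α-SNAP, read 12.26, 12.36, 12.39, 12.28 and 12.33 untreated, 12.04 to 12.34 with Adβgal (median 12.25) and 12.65, 12.59, 12.46, 12.58 and 12.66 with AdNkx6.1. All AdNkx6.1 arrays lay above all others, 1.28-fold above Adβgal (0.36 ± 0.07, adjusted p = 0.00073) and 1.2-fold above untreated (0.27 ± 0.07, adjusted p = 0.0072). Nsf, the ATPase that α-SNAP recruits, read 11.31, 11.32, 11.23, 11.29 and 11.32 untreated, 10.88 to 11.33 with Adβgal (median 11.06) and 11.41, 11.43, 11.31, 11.37 and 11.37 with AdNkx6.1. It was 1.23-fold higher than with Adβgal (0.3 ± 0.08, adjusted p = 0.0084) and was not called against untreated (0.08 ± 0.08, adjusted p = 0.48). Its other probe sets differed by 0.42 ± 0.19 and 0.72 ± 0.38, neither called, and the mean of all of them was 0.48 (adjusted p = 0.086).

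Promoters of 30 members were available, 31 windows of 300 bases in all since Unc13b had more than 1 start. They were searched for AAAGGTCA (the NBRE to which NR4A receptors bind), TGACGTCA (the cyclic AMP response element, CRE) and TAATTA (a core of homeodomain sites), on both strands; TGACGTCA and TAATTA read the same on either strand, and no motif overlaps another. The NBRE occurred in 1.43% of all 33469 promoters, the CRE in 1.83% and TAATTA in 5.36%. Among the 31 windows there was 1 CRE, in Napa, and no match to the other letters. The Napa window is shown because it holds that match (chr1:85915185-85915484, plus strand, RefSeq, GRCr8), with the CRE in capitals, its first base 59 bases before the start. The members' windows had a median GC content of 64.0%, against 51.7% for all promoters.
Napa: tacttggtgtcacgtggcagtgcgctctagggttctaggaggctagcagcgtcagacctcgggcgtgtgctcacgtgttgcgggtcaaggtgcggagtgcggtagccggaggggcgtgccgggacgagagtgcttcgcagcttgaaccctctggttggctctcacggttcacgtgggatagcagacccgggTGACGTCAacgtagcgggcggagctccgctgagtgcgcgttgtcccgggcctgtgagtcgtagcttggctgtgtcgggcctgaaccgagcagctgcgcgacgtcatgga

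The granule membrane proteins Ptprn (IA-2) and Ptprn2 (phogrin), inactive phosphatases of dense-core granules, were not called between the viruses, at 0.08 ± 0.08 and 0.14 ± 0.09 (adjusted p = 0.5 and 0.29).

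Where relatives moved apart, their difference within each array does not depend on the scaling of the array. These pairs were picked after the values were seen, and no test was made. Relative to its untreated mean, Stx1a minus Stx3 ran from 1.0 to 1.5 with AdNkx6.1 and from -0.63 to 0.37 with Adβgal. Syt3 minus Syt4 ran from 0.47 to 0.86 with AdNkx6.1 and from -1.04 to -0.36 with Adβgal. Snap23 minus Snap25 ran from 0.22 to 0.7 against -0.24 to 0.07, and Rab3d minus Rab3c from 0.85 to 1.25 against -0.18 to 0.75. In these 4 pairs the virus groups did not overlap. For Vamp3 minus Vamp2 they did, at 0.21 to 1.08 with AdNkx6.1 and 0.02 to 1.52 with Adβgal.

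**Figure D3:**
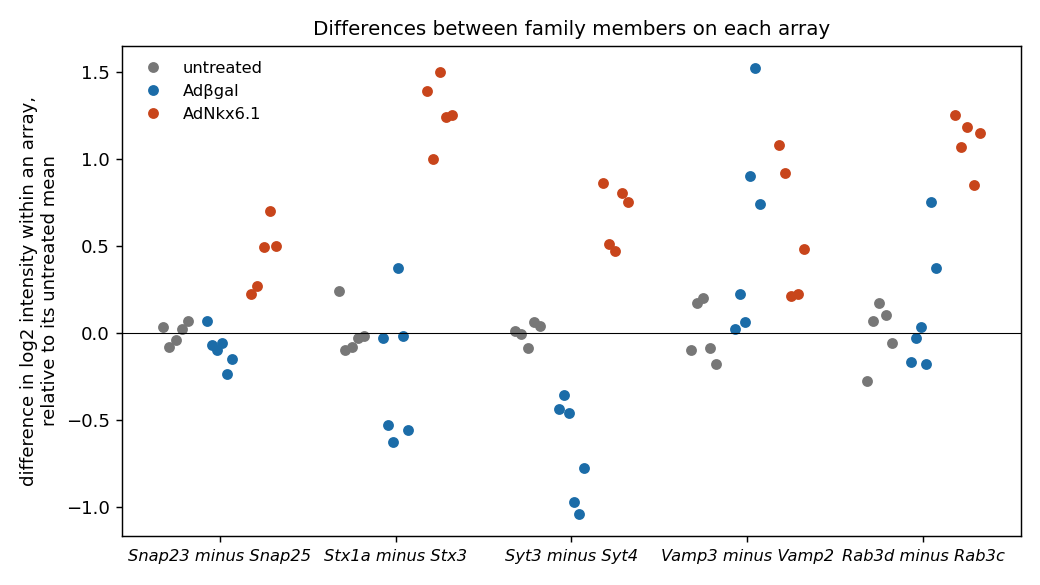
Difference in log2 intensity between 2 members of a family on the same array, relative to the mean of the untreated arrays, for 5 pairs; each point is 1 array. AdNkx6.1 arrays (red) lie above all Adβgal arrays (blue) for every pair but Vamp3 minus Vamp2.

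The comparison of Adβgal with untreated islets sets the control virus against no virus. No member rose and 6 of 37 fell (16.2%), where the background of lower calls was 4.17% and that of all calls 7.01%; in the higher direction the background was 2.84%. The count of higher members was 0 under each setting tried, and also at an unadjusted p under 0.05 in limma. The 37 changes had a median of -0.2, against -0.04 for all genes. Of the 37, 30 lay below 0, where 8194 of all 14217 genes did. Besides Syt3, the granule membrane protein Ptprn2, the sensor Syt5, the Rab gene Rab3b, the Rab effector Rph3al and the priming factor Cadps were lower.

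Ptprn2 read 12.69, 12.93, 12.75, 12.81 and 12.84 untreated, 12.01 to 12.54 with Adβgal (median 12.23) and 12.39, 12.53, 12.32, 12.34 and 12.46 with AdNkx6.1. It fell 1.45-fold with Adβgal (-0.54 ± 0.09, adjusted p = 0.0028). Syt5 read 10.98, 11.03, 10.97, 11.08 and 11.03 untreated, 10.28 to 10.73 with Adβgal (median 10.52) and 10.69, 10.59, 10.42, 10.46 and 10.46 with AdNkx6.1. It fell 1.43-fold (-0.52 ± 0.08, adjusted p = 0.0023). In each of these genes every array that received virus lay below every untreated array, and the virus groups overlapped.

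Rab3b read 13.0, 12.76, 12.76, 12.79 and 12.91 untreated and 12.05 to 12.66 with Adβgal (median 12.45), a 1.37-fold fall (-0.46 ± 0.11, adjusted p = 0.017). Rph3al, a Rab3 and Rab27 effector of endocrine cells, read 11.17, 11.29, 11.2, 11.29 and 11.18 untreated and 10.49 to 11.03 with Adβgal (median 10.86), a 1.35-fold fall (-0.44 ± 0.1, adjusted p = 0.015). Cadps fell 1.23-fold (-0.3 ± 0.08, adjusted p = 0.036). All Adβgal arrays lay below all untreated arrays in these 3 genes too. Members without overlap numbered 7 lower, the 6 called and Rab3a, and 0 higher, where 6.88% of all genes did not overlap, 4.83% lower and 2.05% higher.

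Without replicates 4, 5 and 6 the calls of Rab3b (-0.25, adjusted p = 0.08), Rph3al (-0.31, adjusted p = 0.062) and Cadps (-0.25, adjusted p = 0.13) were lost, and those of Syt3 (-0.48, adjusted p = 0.017), Syt5 (-0.39, 0.017) and Ptprn2 (-0.42, 0.024) held, where the background of lower calls was 2.16%. The median change of the members was then -0.06. Leaving out any 1 untreated array, Adβgal replicate 1, 4 or 6, or AdNkx6.1 replicate 5 also ended the call of Cadps (adjusted p between 0.05 and 0.095). Further calls came on leaving out 1 array, Snap23 without Adβgal replicate 1 (-0.27, adjusted p = 0.041) and Nsf without Adβgal replicate 2 (-0.27, adjusted p = 0.024). Summed acinar intensity on the 3 arrays was 68565 to 103202 and leukocyte intensity 12422 to 20140, against 21206 to 51852 and 11179 to 11710 on Adβgal replicates 1, 2 and 3. Endocrine markers were lower in 2 of 14 cases with Adβgal against untreated (14.3%, background 4.17%), with overlapping sums of 191405 to 210127 and 207607 to 227855. The part of these cells in the members' values was not tested.

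**Figure D4:**
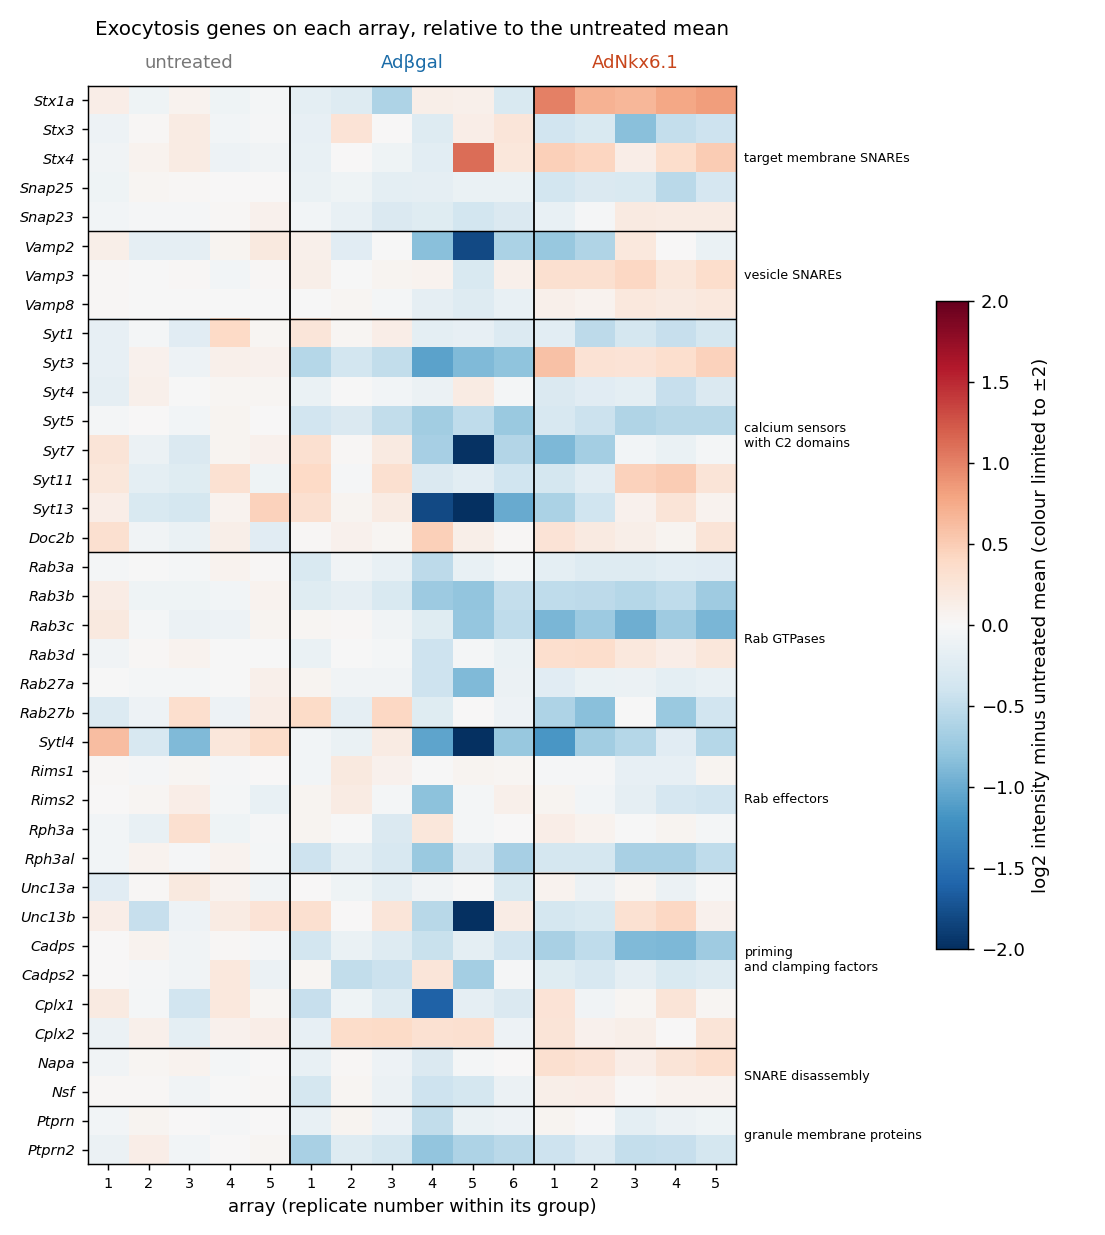
Log2 intensity of the 37 genes on each of the 16 arrays, minus the untreated mean of the gene, grouped by role; blue is lower and red higher, with colour limited to ±2. Adβgal replicates 4 and 5 carry the deepest blue, with 4 and 5 genes more than 1 log2 unit below their untreated mean.

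Vamp2, Syt7, Syt13, Sytl4 and Unc13b had the 5 highest SDs of the members among the Adβgal arrays. The SD among Adβgal arrays was 0.71 for Vamp2, 0.85 for Syt7 (a slow, high-affinity calcium sensor of granules), 1.13 for Syt13, 1.32 for Sytl4 and 0.97 for Unc13b. The next highest was 0.57, for Cplx1, and the median SD of the members was 0.22 in that group and 0.11 in each other group. Over all genes the median SD was 0.23 with Adβgal, 0.12 untreated and 0.15 with AdNkx6.1. Among AdNkx6.1 and untreated arrays the SD of Syt11 was 0.39 and 0.25, above that of some of these 5 genes. Vamp2 read 12.0, 11.7, 11.71, 11.93 and 12.07 untreated, 10.07 to 11.98 with Adβgal (median 11.45) and 11.13, 11.28, 12.1, 11.89 and 11.75 with AdNkx6.1. All 5 genes were lowest on Adβgal replicate 5, where Sytl4 read 5.2 and Unc13b 4.79. Among the AdNkx6.1 arrays all 5 were lowest on replicates 1 and 2.

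The beta-actin 3′ minus 5′ difference, which grows as transcripts are shortened from the 5′ end or copied less far, was 5.35 on Adβgal replicate 5 and 3.96 and 3.84 on AdNkx6.1 replicates 1 and 2, against 2.48, 2.75 and 2.9 on AdNkx6.1 replicates 3, 4 and 5. On Adβgal replicates 4, 6 and 2, in that order, it was 3.38, 3.39 and 3.24. On the same arrays Syt13 read 6.84, 7.63 and 8.7, Vamp2 11.05, 11.25 and 11.65, and Sytl4 7.54, 7.84 and 8.46. Syt7 read 6.14, 6.22 and 6.82 there, and Unc13b 6.44, 7.14 and 7.01. Untreated replicates 2 and 3 had the highest differences of their group, 3.84 and 3.88. Each of the 5 genes was lower on both than on the other untreated arrays. The part of the beta-actin difference in these values was not tested. None of the 5 genes was called in any comparison. With this difference as a covariate in the fit, an alternative added after the control probe sets were seen, the SE of Vamp2 for Adβgal against untreated went from 0.28 to 0.08 and that of Syt7 from 0.32 to 0.1. In that fit Vamp2 (-0.59, adjusted p = 0.00079), Syt7 (-0.48, 0.0094), Syt13 (-0.8, 0.038) and Sytl4 (-0.91, 0.017) were called lower with Adβgal than untreated, and so were Rab27a (-0.26, 0.047) and Snap23 (-0.24, 0.017). That made 12 members lower, where 8.52% of all genes were. Against untreated islets Vamp2 (-0.44, adjusted p = 0.00098), Syt7 (-0.58, 0.00084) and Sytl4 (-0.97, 0.0051) were then also lower with AdNkx6.1. Between the viruses none of the 5 was called with the covariate, at adjusted p-values of 0.2 to 0.88, while Stx1a (1.02) and Syt3 (1.07) stayed within 0.03 of their changes without it. Without Adβgal replicates 4, 5 and 6 the 5 genes differed by -0.05 to 0.19 between Adβgal and untreated. Vamp2, Syt7, Syt13 and Sytl4 were thus called lower with Adβgal in the covariate fit but not without these arrays. Sytl4 was lower with AdNkx6.1 than untreated in both fits, at -0.65 (adjusted p = 0.049) without these arrays. The beta-actin difference was 2.56, 3.24 and 2.75 on Adβgal replicates 1, 2 and 3, and 3.08 to 3.88 untreated. Its part in the fit without replicates 4, 5 and 6 was not tested.

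**Figure D5:**
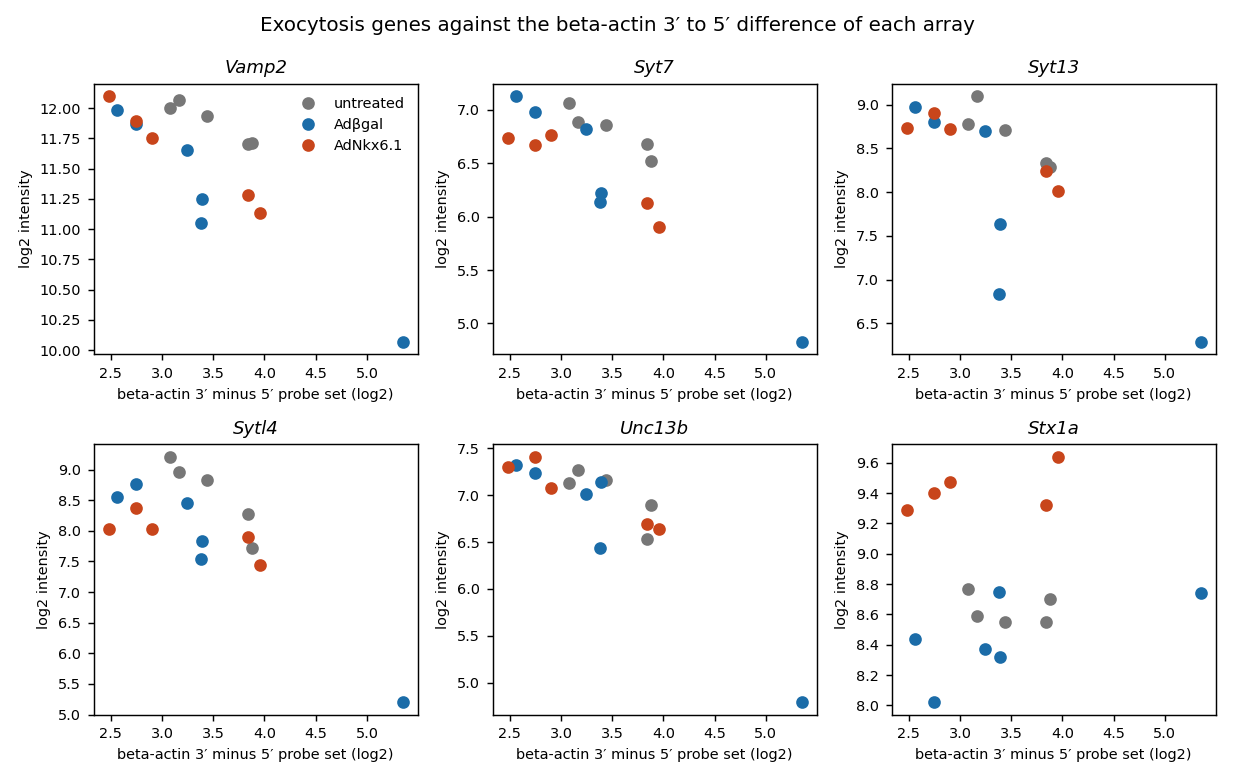
Log2 intensity of the 5 genes with the highest SD among Adβgal arrays, and of Stx1a, against the difference between the 3′ and 5′ beta-actin probe sets of the same array; each point is 1 of 16 arrays. The 5 genes are lowest on the array at 5.35, Adβgal replicate 5, whereas Stx1a is high on all 5 AdNkx6.1 arrays.

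The comparison of AdNkx6.1 with untreated islets shares its arrays with both others, so each gene's own values are given side by side. Of 37 members 17 were called (45.9%, background 30.7%), 5 higher (background 16.9%) and 12 lower (background 13.8%). Without overlap 6 were higher and 12 lower, where 32.1% of all genes did not overlap, 17.4% higher and 14.7% lower. With centred array medians 2 were higher and 12 lower, and over all genes 1894 were higher and 3154 lower, against 2404 and 1956. Endocrine markers fell in the same comparison, with 10 of 14 called lower (71.4%), 0 higher and all 14 changes below 0. Their summed intensity was 169676 to 199893 with AdNkx6.1 and 207607 to 227855 untreated, without overlap, and its part in the members' values was not tested. Without untreated replicate 1, or without AdNkx6.1 replicate 1, the higher members numbered 3. The 5 higher were Stx1a, Vamp3 (1.26-fold), Syt3, Rab3d and Napa. The lower genes not yet given were Stx3 (1.4-fold), Syt4 (1.22-fold), Syt5 (1.41-fold), Rab3b (1.49-fold), Rph3al (1.42-fold), Ptprn2 (1.32-fold), Syt1 (1.3-fold), Rab27b (1.43-fold) and Rab3a (1.18-fold). With the mean of all probe sets the calls of Stx3 (-0.12, adjusted p = 0.33), Syt4 (-0.24, 0.37) and Rab3a (-0.26, 0.31) were lost. The dimmer probe set of Stx3 moved by 0.24 and that of Rab3a by -0.29 ± 0.34.

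Ptprn2, Syt5, Rab3b and Rph3al thus lay below untreated with either virus, and differed between the viruses by -0.11 to 0.14 on the log2 scale, with SEs of 0.08 to 0.11. Rab3c, Snap25, Stx3 and Syt4 had changes of -0.25 to 0.04 with Adβgal that were not called. The call of Rab3a (adjusted p = 0.037) was lost without any 1 of untreated replicates 2, 3, 4 and 5 or of the AdNkx6.1 arrays, at adjusted p-values of 0.051 to 0.086. For Rab27b the call ended on leaving out replicate 3 or 5 of the untreated arrays, or replicate 1, 2 or 4 of the AdNkx6.1 arrays (adjusted p between 0.063 and 0.083). The dimmer probe set of Rab27b was not called (-0.19 ± 0.17). For Syt1 the call ended on leaving out replicate 4 or 5 of the untreated arrays, or replicate 2 or 4 of the AdNkx6.1 arrays (between 0.052 and 0.072). Without Adβgal replicate 5, which enters this comparison only through the shared estimate of spread, Stx4 (0.38, adjusted p = 0.0053) and Vamp8 (0.15, adjusted p = 0.048) were called higher.

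The rest of the machinery was read from a list of 118 further genes, of which 104 were measured: other SNAREs and their regulators, other synaptotagmins, Rab regulators, active zone scaffolds, the exocyst and vesicle membrane proteins. Between the viruses 25 of these 104 were called (24.0%, background 25.0%), 12 higher and 13 lower. Syngr3, a synaptogyrin of vesicle membranes, rose 2.8-fold (1.49 ± 0.17, adjusted p = 9.1e-06), from 4.68 to 6.17. Rab37, a Rab of secretory granules, rose 1.67-fold and Cyb561, the granule cytochrome that supplies electrons for peptide amidation, 1.35-fold. Slc18a1, a vesicular monoamine transporter, fell 1.86-fold (-0.9 ± 0.16, adjusted p = 0.0005). By role, 9 of 21 vesicle membrane proteins were called (5 higher, 4 lower), 5 of 13 scaffold genes (1 higher, 4 lower) and 0 of 9 exocyst genes in limma, whose log2 changes ran from -0.34 to 0.2 and of which 2 had an unadjusted p under 0.05.

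With the control virus alone 6 of the 104 were lower (5.77%, background 4.17%) and 0 higher (background 2.84%), among them Syp (synaptophysin, 1.26-fold), Syn1 (synapsin 1, 1.38-fold), Syt17 (1.24-fold) and Ica1 (islet cell autoantigen 1, 1.26-fold). Against untreated islets AdNkx6.1 gave 13 higher (12.5%, background 16.9%) and 19 lower (18.3%, background 13.8%), in all 30.8% where the background was 30.7%. Besides Syngr3, these included Ica1 (1.52-fold lower), the scaffold Cask (1.31-fold lower) and Rapgef4 (Epac2, a cyclic AMP sensor of granule release, 1.67-fold lower).

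Among markers of the cells that hold this machinery, Ins1, Ins2 and Gcg differed by -0.06 to 0.01 between any 2 groups. These genes lay near the top of the intensity scale, and saturation of their signal was not tested. Named after their values were seen, Pyy (-0.53 ± 0.09, adjusted p = 0.00025) and Ppy (-0.21 ± 0.07, 0.042) were lower with AdNkx6.1 than with Adβgal in limma. The other endocrine markers called lower, also named after their values were seen, were Nkx6-1 (-0.46), Pdx1 (-0.31) and Pax6 (-0.29). Sst (-0.15, 0.083) and Iapp (-0.03, 0.76) were not called between the viruses. Against untreated islets Pyy (-0.61), Sst (-0.26), Ppy (-0.24) and Iapp (-0.18) were called lower with AdNkx6.1. So were Nkx6-1 (-0.8), Neurod1 (-0.78), Isl1 (-0.72), Pdx1 (-0.53), Pax6 (-0.51) and Slc2a2 (-0.42). Of 14 measured endocrine markers (of 15 listed), 5 were lower with AdNkx6.1 than with Adβgal (35.7%, background 8.48%) and 0 higher (background 16.6%). Their summed intensity was 169676 to 199893 against 191405 to 210127. Duct markers (10 of 12 measured) were higher in 4 cases (40.0%, background 16.6%), with sums of 69441 to 74467 against 51075 to 60649 that did not overlap. Named after their values were seen, those 4 were Krt7, Krt8, Krt18 and Muc1. Krt19 (-0.01), Cftr (-0.57) and Onecut1 (-0.31) lay below 0 and were not called, nor were Spp1, Cldn4 and Epcam. The brightest genes weigh most in the linear sum, and Krt18, Krt8 and Krt7 averaged 14.41, 13.86 and 13.65 with AdNkx6.1. Neuron and Schwann cell markers were measured in 12 of 16 cases, with 3 higher (25.0%, background 16.6%) and 1 lower (8.33%, background 8.48%). Their sums overlapped, at 5724 to 7159 against 4855 to 6687. Of the acinar markers 4 of 17 were lower (23.5%) and of the stellate and fibroblast markers 2 of 12 (16.7%). Of the leukocyte markers 1 of 13 was lower and 1 higher (7.69% each). The background was 8.48% lower and 16.6% higher. Of the endothelial markers 0 of 9 were called in limma, also at an unadjusted p under 0.05. No marker was at 0 on any array, the lowest intensity in the table being 6.25. The part of these cells in the members' changes was not tested.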

How the data were processed

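The 37 measured genes and the lists of other genes and markers were chosen with earlier results of these data known. The authors deposited linear intensity, spanning 6.25 to 35765. The submitters' processing notes name RMA, without a version. As log2 had been planned for, deposited intensity was log2-transformed, with no pseudocount. Of 31099 probe sets, 57 controls were left out, 20826 carried a single symbol of the platform annotation, 436 carried several and 9780 lacked one. By gene number, 20758 matched the RefSeq gene table, and 0 symbols were updated. For each of 14217 genes the probe set with the highest mean log2 was kept. Probe sets that share sequence with a relative, such as another Rab3 gene, could not be checked here.

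All 16 arrays entered 1 fit of limma 3.58.1 under R 4.3.3, with its default empirical Bayes step, with 2-sided tests and Benjamini-Hochberg adjustment over 14217 genes at a threshold of 0.05. The script was tested on simulated data. Medians of the arrays were 264.8 to 296.2, and the number of arrays limits the precision. The treatment protocol states 5 replicates a condition and the table holds 6 Adβgal arrays, all used. Same-numbered arrays correlated at -0.39 to 0.25 in their deviations from group means, so numbers were not taken as pairs. Every measured member is named. Of 118 other genes of the machinery, the 4 with the smallest p past the threshold are named in each comparison. Of marker lists up to 3 genes were planned to be named, and further ones were named after their values were seen. Other settings tried were a second quantile normalization, centred array medians, 16 added before log2, the mean of all probe sets, dim genes left out, fits of only the groups compared, a robust trended prior, array weights, the replicate block and leaving out arrays. A covariate of beta-actin difference was added after the data were seen. Promoters came from the RefSeq table of build GRCr8. Proteins were not used here. Python 3.11.15, pandas 2.3.3 and matplotlib 3.10.9 were used.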

Additional observations from a re-analysis of the deposited data

Results flagged for a closer look

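In 10 of 111 combinations of gene and group, 1 array lay far from the others by Dixon's criterion, where chance gives about 1 in 20. On Adβgal replicate 5, Stx4 read 11.96 (nearest array 11.07), Vamp3 12.52 (12.81), Sytl4 5.2 (7.54) and Unc13b 4.79 (6.44). On Adβgal replicate 4, Doc2b read 6.31 (nearest array 5.94), Rab3d 11.68 (11.96), Rims2 9.25 (10.03) and Cplx1 4.97 (6.12). Among untreated arrays, Rab27a read 13.4 on replicate 5 (nearest 13.28) and Rph3a 5.12 on replicate 3 (nearest 4.78). The beta-actin 3′ minus 5′ difference was 5.35 on Adβgal replicate 5 and 3.38 on replicate 4, and the acinar sums were 68565 and 103202. Their part in these values was not tested.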

How the results depend on the processing

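Over all settings and the 37 genes, 961 values for AdNkx6.1 against Adβgal stayed on their side of the threshold, 20 lost the call and 13 gained it. For Adβgal against untreated 966 stayed, 16 lost the call, 11 gained it and 1 reversed. A reversal was counted only where the gene was called in either fit, so genes never called could change sign among the values that stayed. For AdNkx6.1 against untreated these were 934, 37 and 23. The reversal was Cadps for Adβgal against untreated, which was 0.53 with the mean of all probe sets, where its dimmer probe set moved by 1.37. Against 8 higher and 7 lower members for AdNkx6.1 against Adβgal, centred array medians gave 5 higher (background 13.3%). Leaving out 1 array gave 8 to 10 higher (background 13.6% to 18.5%) and 5 to 7 lower (5.94% to 9.54%). Against 6 lower members for Adβgal against untreated, 3 were lower without Adβgal replicates 4, 5 and 6 (background 2.16%). With the beta-actin covariate 12 were lower (background 8.52%). Leaving out 1 array gave 5 to 7 lower (background 2.08% to 6.43%) and 0 to 0 higher (1.49% to 4.14%). Against 5 higher and 12 lower for AdNkx6.1 against untreated, centred medians gave 2 higher (background 13.3%) and array weights 8 (27.2%). Leaving out 1 array gave 3 to 7 higher (background 14.3% to 19.3%) and 9 to 12 lower (10.7% to 16.4%).

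With the replicate number as a block, 3 members were lower for Adβgal against untreated in place of 6 (background 1.70%). The block gave 8 higher (background 13.7%) and 6 lower (6.37%) for AdNkx6.1 against Adβgal. For AdNkx6.1 against untreated it gave 4 higher (background 14.9%) and 10 lower (11.9%). The numbers were not shown to pair the arrays, since 4 of 15 same-numbered pairs correlated best with their own number. Over all genes the block gave 152 higher and 241 lower for Adβgal against untreated, against 404 and 593.

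Counts over all genes moved by over 1.5 times in other settings too. For Adβgal against untreated, a fit of only those groups gave 212 higher and 309 lower, array weights 712 and 1078, the covariate 893 and 1211, centred medians 903 lower, leaving out Adβgal replicates 4, 5 and 6 245 and 307, and leaving out 1 array 212 to 589 and 296 to 914. For AdNkx6.1 against Adβgal, lower genes numbered 1868 with centred medians, 1882 with array weights and 762 in a fit of only those groups, against 1206. For AdNkx6.1 against untreated, array weights gave 3862 higher and 3607 lower against 2404 and 1956. Lower genes were 3154 with centred medians and 2933 in a fit of only those groups. The cause of these shifts was not tested.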

Other observations

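The active zone and scaffold genes of the list were lower in 6 of 13 cases and higher in 0 with AdNkx6.1 against untreated islets, with a median log2 change of -0.3, where 13.8% of all genes were lower. For Adβgal against untreated 1 of the 13 was lower. The Munc18, tomosyn and SNARE-binding genes were lower in 3 of 8 cases and higher in 1 with AdNkx6.1 against untreated, and no gene of that group was called with Adβgal against untreated in limma.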
